A study of Mus musculus with 6 samples.

Results

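The clustered histone genes of the mouse were read for H3K4me3, a mark of promoters that are in use or kept ready, and H3K27me3, which Polycomb complexes place on silent genes. Members were all protein-coding RefSeq GRCm38.p6 genes whose current symbol starts with H1f, H2ac, H2bc, H3c or H4c and a number, or whose symbol starts with Hist1h to Hist4h. The rule found 67 of 21887 protein-coding genes, namely 10 linker histone H1, 17 H2A, 16 H2B, 12 H3 and 12 H4 genes. The annotation carries the newer symbols only, so that Hist1h4b, for example, is listed as H4c2. The rule uses no measured value.

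The libraries came from neural stem and progenitor cells taken from E13.5 mouse forebrain and expanded at passage 2 to 3 with epidermal and fibroblast growth factors. Cultures were kept for 24 h with water, the control, or with crotonate at 10 mM, a short-chain fatty acid salt from which cells make crotonyl-CoA, the donor for histone crotonylation. In CUT&Tag, an antibody brings a transposase to a histone mark, and the transposase cuts and tags the DNA beside it. Peak lists of 1 library per mark and treatment were used, 4 of the 6 samples, while both IgG samples were not used here. The labels name no strain, sex or number of embryos. With 1 library per group there was no replicate and no test, so every difference below is one between 2 libraries. In a bulk library, fewer cells with a mark and less of the mark per cell cannot be told apart.

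Replication-dependent histone genes are small genes without introns that are read in S phase, when new DNA must be packed into nucleosomes. Their mRNAs end in a stem-loop bound by SLBP instead of a poly(A) tail, and NPAT, a substrate of cyclin E and CDK2, gathers on the clusters in the histone locus body. H2A, H2B, H3 and H4 form the nucleosome core, and H1 binds the linker DNA between nucleosomes. Many H2A and H2B genes stand back to back and share the DNA between their starts.

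The members lay in 4 clusters, each a run of at least 3 members with gaps of at most 100 kb. Cluster 1 (chr13:21715711-21833475, 118 kb) held 17 members from H2bc13 to H2ac24. Cluster 2 (chr13:22035122-22043658, 8.54 kb) held 5 members from H2ac12 to H2bc11. Cluster 3 (chr13:23531044-23764412, 233 kb) held 29 members from H4c8 to H1f1, with 1 other protein-coding gene, the iron regulator Hfe. Cluster 4 (chr3:96219885-96270192, 50.3 kb) held 10 members from H2ac21 to H2bc18. The other 6 members stood outside any cluster, and these were H2ac1 and H2bc1 on chromosome 13, H1f0 and H1f7 on chromosome 15, and H1f8 and H1f10 on chromosome 6.

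Promoters of 62 of the 67 members were matched in RefSeq's GRCm38.p6 table, with 63 starts, and 6 are printed here because the results turn on them. H4c2 and H4c17 had H3K4me3 in the crotonate list only, and H4c18 is nearly identical to H4c17 and had the narrowest peak among H4 genes in water. H4c8 lay under the widest peak. H2bc7 belonged to the peak that reached most members, and H2bc1, a testis histone gene, had no peak. Each run holds 300 bases, 250 before the start and 50 after it, 5′ to 3′ on the gene's strand. H4c2 is chr13:23756687-23756986 on the plus strand, H4c17 is chr13:21811496-21811795 on the plus strand and H4c18 is chr13:21832148-21832447 on the minus strand. H4c8 is chr13:23530794-23531093 on the plus strand, H2bc7 is chr13:23574158-23574457 on the minus strand and H2bc1 is chr13:23934107-23934406 on the minus strand. Capitals mark 5 motifs, searched on both strands: TATAAA of the TATA box, the CCAAT box, the octamer ATTTGCAT, the H1 box AAACACA and the H4 element GGTCCG. The end of TATAAA can overlap the beginning of AAACACA, and no marked match overlapped another in these runs.

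H4c2: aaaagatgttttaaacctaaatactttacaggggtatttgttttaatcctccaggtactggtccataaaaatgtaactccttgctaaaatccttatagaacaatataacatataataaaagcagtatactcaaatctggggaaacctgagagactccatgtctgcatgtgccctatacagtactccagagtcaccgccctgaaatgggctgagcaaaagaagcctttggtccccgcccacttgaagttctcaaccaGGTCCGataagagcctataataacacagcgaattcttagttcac
H4c17: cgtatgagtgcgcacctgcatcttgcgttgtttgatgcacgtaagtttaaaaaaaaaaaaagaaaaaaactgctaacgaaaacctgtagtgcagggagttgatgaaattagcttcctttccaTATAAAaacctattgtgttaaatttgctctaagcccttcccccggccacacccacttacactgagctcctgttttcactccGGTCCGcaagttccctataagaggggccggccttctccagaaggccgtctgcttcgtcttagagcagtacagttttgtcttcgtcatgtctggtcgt
H4c18: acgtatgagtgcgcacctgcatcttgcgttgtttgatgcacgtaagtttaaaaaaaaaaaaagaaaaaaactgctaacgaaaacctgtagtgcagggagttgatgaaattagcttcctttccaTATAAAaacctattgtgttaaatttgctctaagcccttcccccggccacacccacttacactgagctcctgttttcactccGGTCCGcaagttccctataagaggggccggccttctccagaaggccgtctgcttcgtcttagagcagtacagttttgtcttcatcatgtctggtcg
H4c8: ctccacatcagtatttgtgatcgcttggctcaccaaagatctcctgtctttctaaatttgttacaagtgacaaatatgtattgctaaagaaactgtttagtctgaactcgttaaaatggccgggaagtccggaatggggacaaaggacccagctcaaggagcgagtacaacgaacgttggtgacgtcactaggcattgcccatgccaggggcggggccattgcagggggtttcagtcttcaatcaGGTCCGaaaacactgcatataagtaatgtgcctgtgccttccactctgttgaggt
H2bc7: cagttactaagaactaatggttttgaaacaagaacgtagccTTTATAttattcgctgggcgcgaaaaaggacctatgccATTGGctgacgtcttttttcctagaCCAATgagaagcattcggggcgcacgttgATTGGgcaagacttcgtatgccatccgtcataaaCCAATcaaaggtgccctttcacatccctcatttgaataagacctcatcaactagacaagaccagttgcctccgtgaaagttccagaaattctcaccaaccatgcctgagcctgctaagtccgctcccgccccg
H2bc1: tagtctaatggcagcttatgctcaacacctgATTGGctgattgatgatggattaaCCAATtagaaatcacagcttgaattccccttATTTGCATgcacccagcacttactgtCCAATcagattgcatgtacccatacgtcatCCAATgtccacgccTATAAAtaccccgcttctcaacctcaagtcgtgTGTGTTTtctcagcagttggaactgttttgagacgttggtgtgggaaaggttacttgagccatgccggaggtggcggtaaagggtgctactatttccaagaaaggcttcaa

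These letters divided the histone classes. GGTCCG, letters of the H4 promoter element read by the factor HINFP, was in 10 of 11 H4 promoters and in 3 of the other 52, against 10.5% of 21263 promoters of all protein-coding genes. CCAAT, the box bound by NF-Y, was in all 17 H2A, 15 H2B and 10 H3 promoters, in 7 of 10 H1 and in 3 of 11 H4 promoters, against 38.2% of all promoters. ATTTGCAT, the octamer known from H2B promoters and bound by POU factors, was in 7 of 15 H2B and 6 of 17 H2A promoters and in no H1, H3 or H4 promoter, against 1.66%. In 9 back-to-back pairs the starts lay 164 to 281 bp apart, so the runs of both genes hold shared DNA. The same CCAAT or ATTTGCAT can therefore count for an H2A and an H2B gene, and these counts are not independent. AAACACA, known as the H1 box, was in 5 of 10 H1 promoters, in 2 H2A and 2 H2B promoters and in no H3 or H4 promoter, against 6.15%. TATAAA was in 34 of 63 member promoters (54.0%), against 12.6%. A match describes letters anywhere in the run, and neither a box at its working position nor binding.

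H3K4me3 lay on or within 2 kb of most members in both libraries, and no member had an H3K27me3 peak at either end. In water, 59 of 67 members (88.1%) had an H3K4me3 peak within 2 kb of either annotated end, where 54.1% of all protein-coding genes had one. After crotonate, 63 of 67 (94.0%) had one, against 58.2% of all genes. Where the peak had to overlap the gene itself, 53 members (79.1%, against 56.0%) were marked in water and 58 (86.6%, against 60.1%) after crotonate. H1 genes stood at 8 of 10 in both lists, and all 12 H3 genes were marked in both. H2A went from 15 to 16 of 17, H2B from 14 to 15 of 16 and H4 from 10 to 12 of 12. No member marked in water lacked a peak after crotonate (0 of 59), and this was also rare among all genes at 0.0930%. Within the clusters, 57 of 61 members were marked in water and all 61 after crotonate, and outside them the same 2 of 6, H1f0 and H1f10, were marked in each.

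**Figure D1:**
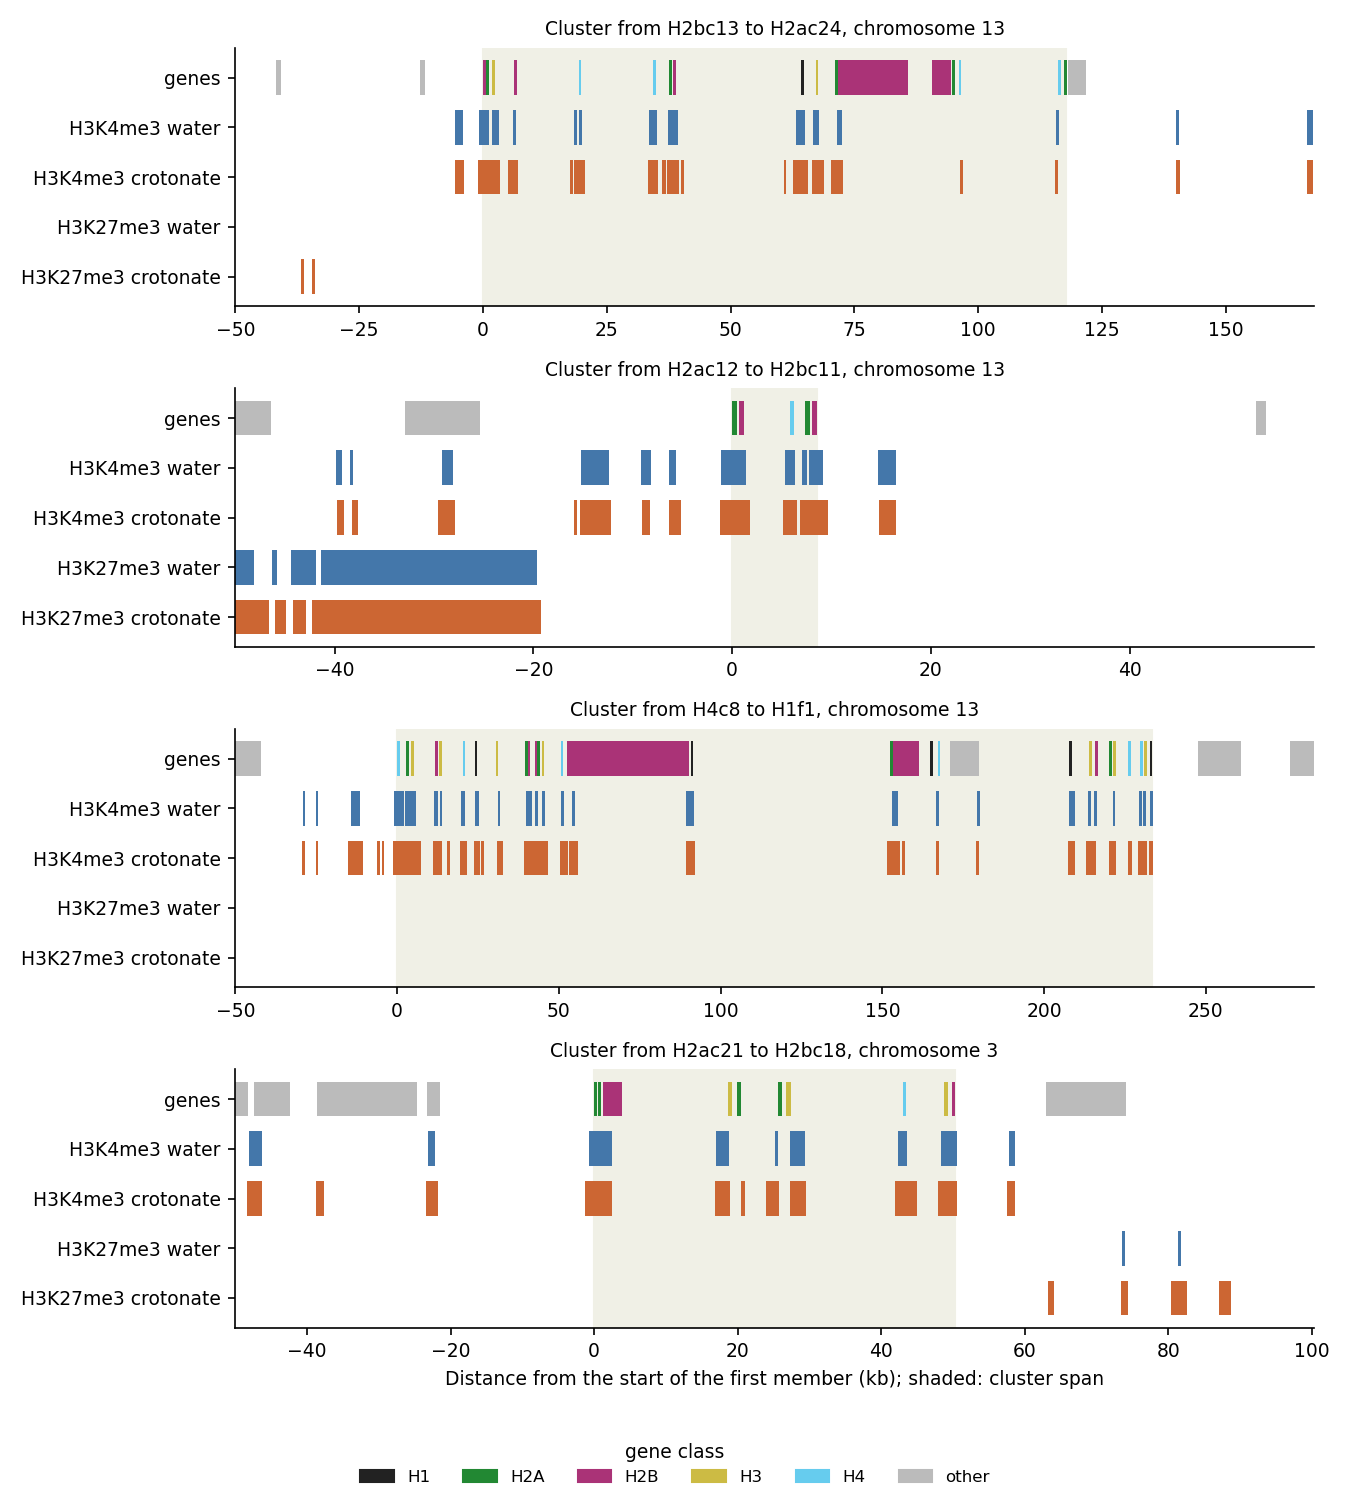
Map of the 4 histone clusters, with position in kb from the first base of each cluster on the x axis. The top row holds the genes, coloured by histone class with other protein-coding genes in grey, and the rows below hold the peaks of the 4 lists. H3K4me3 blocks sit on the members and are longer in the crotonate row, and the H3K27me3 rows are empty inside each cluster.

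The peaks were shared by neighbouring genes. The 59 marked members in water lay under or beside 46 distinct peaks, and the 63 after crotonate under or beside 44. Of the water peaks, 34 of 46 (73.9%) reached at least 2 protein-coding genes, against 21.0% of all gene-end peaks, and after crotonate 30 of 44 (68.2%) did, against 21.5%. A single peak reached at most 4 members in water. After crotonate a peak of 7.36 kb at chr13:23570327-23577688 reached 5, the H2A genes H2ac8 and H2ac7, the H2B genes H2bc8 and H2bc7, and H3c4. In water the same stretch held 3 separate peaks of 1.66, 0.881 and 1.19 kb. The counts of marked members are therefore not counts of independent observations.

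H3K4me3 covered more of the histone DNA in the crotonate list. Over the 410 kb of the 4 clusters, peaks covered 54.0 kb (13.2%) in water and 93.7 kb (22.8%) after crotonate, from 44 and 45 peaks. In cluster 1 the covered share was 10.3% in water and 19.5% after crotonate. In cluster 2, the most compact, it was 41.6% and 57.1%. Clusters 3 and 4 went from 12.1% to 21.9% and from 20.0% to 29.3%. Each of the 4 clusters was thus covered far more densely than its chromosome, where the shares were 0.756% and 1.03% for chromosome 13 and 0.680% and 0.905% for chromosome 3, up to the end of the last peak.

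The peaks at members summed to 63.2 kb in water and 106 kb after crotonate, a ratio of 1.68, beside 1.34 for the peaks at all gene ends and 1.37 for all peaks. All 46 water peaks at members overlapped a crotonate peak, as did 99.8% of all gene-end peaks. In 27 cases 1 water peak matched 1 crotonate peak, and all 27 were wider after crotonate, where 95% of such pairs at all gene ends were. The median of these pairs was 1258 bp in water and 2283 bp after crotonate, and the median ratio was 1.73 (range 1.09 to 4.62) against 1.24 at all gene ends. The share that widened was thus close to the background, and the size of the widening was above it. The 46 water peaks at members were weak and narrow to begin with. Their median fold enrichment exceeded that of 11.2% of gene-end peaks, and their median width that of 28.1%. Gene-end pairs of like width or enrichment in water were not compared, so the larger ratio is not shown to be particular to histone genes.

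Neighbouring water peaks were often under 1 crotonate peak at the members. Of 44 crotonate peaks, 9 (20.5%) overlapped at least 2 water peaks, against 3.33% of all gene-end peaks, and they joined 19 water peaks, at most 3 each. The widest, 8.82 kb at chr13:23529774-23538596, overlapped the 2 widest water peaks at members, of 3.30 and 3.20 kb, and reached H4c8, H2ac10 and H3c8. Another, 4.50 kb, joined 2 peaks of 1.54 and 1.77 kb at H1f0, which stands alone on chromosome 15. Peaks with no water peak below them made up 8 of 44 (18.2%), against 13.3% at all gene ends. With only peaks of at least 5-fold enrichment in both lists, 3 of 40 crotonate peaks overlapped at least 2 water peaks, and the background share was 2.29%. Joining needs a neighbouring peak, and peaks covered the clusters far more densely than their chromosomes. Gene ends with a like density of peaks were not compared.

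**Figure D2:**
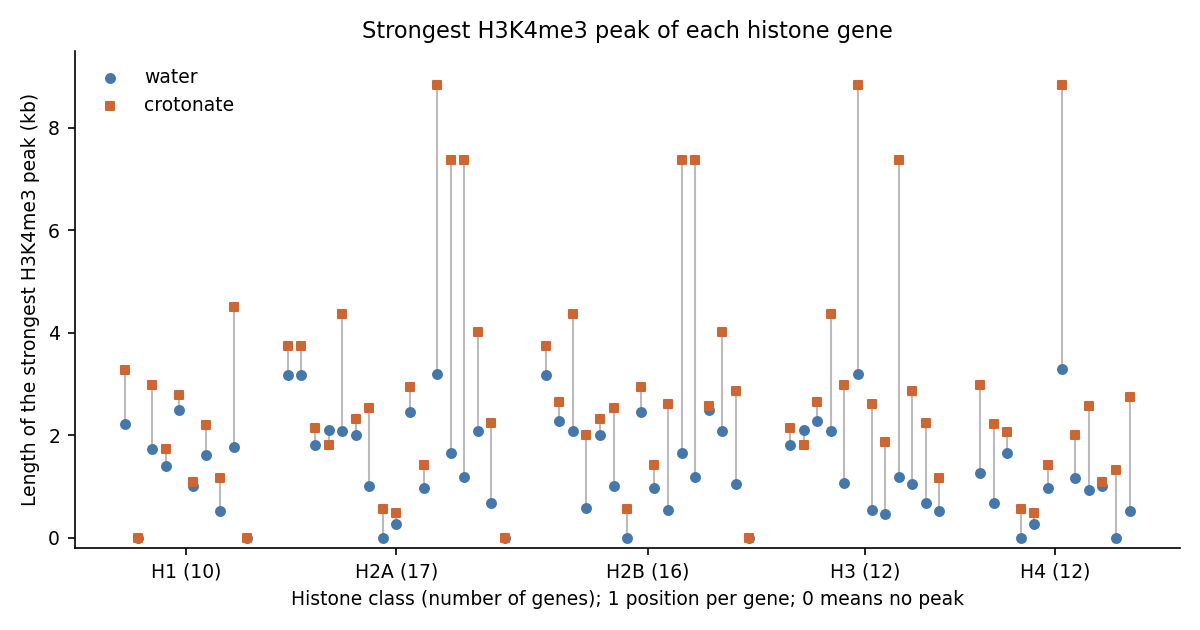
Strongest H3K4me3 peak within 2 kb of either end of each member, which can lie on a neighbour. Its width in kb is on the y axis, with 0 for no peak. Each member has 1 position on the x axis, grouped by histone class, with a circle for water and a square for crotonate. For members with a peak in both lists the square lies above the circle, except at H2ac18 and H3c14. At these the strongest peak was another one in each list. Members that share a strongest peak show the same width.

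Depth moved with the treatment and bears on width. The lists give no fragment totals, so relative depth was estimated from the smallest step between pileups and from the lowest local background. By this estimate the background was 1.80 times as deep after crotonate, and the H3K4me3 library 1.16 times and the H3K27me3 library 0.811 times as deep. The H3K4me3 list held 13221 peaks in water and 16007 after crotonate. With the crotonate list reduced to as many peaks as the water list, by −log10 q, the ratio of summed widths was 1.64 at members and 1.31 at all gene ends. The part of depth in the wider peaks was not tested.

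Of the 10 linker histone genes, the 6 inside clusters were marked in both lists, and of the 4 outside them H1f0 and H1f10 were. H1f4, which encodes a major somatic H1, had the widest water peak of the class, 2484 bp with 12.3-fold enrichment, and 2777 bp after crotonate. H1f1, another somatic H1, had the narrowest, 364 bp on the gene with 4.04-fold enrichment, where a peak of 1168 bp lay after crotonate. A further water peak within 2 kb of H1f1, 522 bp at 3.86-fold, lay on its neighbour H3c1. H1f10, the H1X gene on chromosome 6, had 2212 bp in water and 3279 bp after crotonate. H1f6, the testis H1 gene inside cluster 3, counted as marked through a peak that it shared with H4c3, 0.998 kb in water and 1.09 kb after crotonate. Its own start base lay under no peak in either list, and that of H4c3 lay under the shared peak in both. H1f7 and H1f8, the spermatid and oocyte H1 genes, had no peak in either list.

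Among H2A genes the extremes lay in clusters 3 and 1. H2ac10 had the widest water peak of the class, 3197 bp, which it shared with H3c8. H2ac24 had the narrowest, 263 bp at chr13:21831418-21831680, which lay within 2 kb of both H2ac24 and H4c18 but on neither gene, and which was 488 bp after crotonate. In cluster 4, H2ac21 and H2ac20 shared with H2bc21 the peak with the highest fold enrichment of any member peak in water, 26.7-fold and 3170 bp wide. It was 3748 bp wide after crotonate with 36.5-fold enrichment. H2ac1, a testis H2A gene, had no peak in either list, and H2ac23 had one after crotonate only, which lay within 2 kb but not on the gene.

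For H2B, the peak of H2bc21 in cluster 4 was also the widest of its class in water. H2bc9 had the narrowest strongest peak within its window, 532 bp at 9.69-fold, but this lay on its neighbour H3c7. The peak over H2bc9 itself was 1.16 kb wide at 3.92-fold, and a single peak of 2598 bp lay over both after crotonate. H2bc7, in the stretch under the 7.36 kb crotonate peak, was covered in water by a peak of 881 bp at 3.93-fold, and the stronger peak within its window, 1185 bp at 8.12-fold, lay on its neighbour H3c4. H2bc1 had no peak in either list, and H2bc23 had one after crotonate only, which lay near the gene but not on it.

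All 12 H3 genes were marked in both lists, while 10 of 12 H4 genes were marked in water and all 12 after crotonate. H3c8 shared the 3197 bp water peak with H2ac10, and H3c6 had the narrowest strongest peak, 459 bp at 6.86-fold, and 1865 bp after crotonate. H3c4 lay inside the 5-member peak, as the last of its members by position. H3c14 and H3c15 in cluster 4 had 94.7% identical promoters, and neither start base lay under a peak in either list, though both genes had peaks within 2 kb.

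Both H4 genes without a peak in water had one after crotonate. H4c8 had the widest water peak of the class, 3299 bp at 8.83-fold. H4c2 had no peak in water and a peak of 1327 bp at chr13:23756856-23758182 after crotonate, with 7.20-fold enrichment and −log10 q of 19.3, and this peak covered its start base at 23756937. H4c17 gained a peak of 563 bp at chr13:21812123-21812685, with 12.4-fold enrichment and −log10 q of 21.9, together with its neighbours H2ac23 and H2bc23. That peak began inside H4c17, passed its 3′ end at 21812150 and lay over the start base of none of the 3 genes. It touched neither H2ac23 nor H2bc23. The 4 gained members thus rested on 2 peaks.

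Of 8 members without H3K4me3 in water, 4 gained it, against 9.10% of such genes overall. The other four, H1f7, H1f8, H2ac1 and H2bc1, had it in neither list and stand outside the clusters. The number of gains turned on the threshold. With only peaks of at least 5-fold enrichment, 44 members (65.7%, against 52.4% of all genes) had H3K4me3 in water and 63 (94.0%, against 56.9%) after crotonate. Of the 23 members without it in water under this threshold, 19 counted as gained, against 9.76% of such genes. Only 8 of these 23 had no water peak at any enrichment, and only 4 of the 19 gains came from those 8. The other gains were at members with a water peak under 5-fold. Among all genes, 10056 of the 10416 unmarked under this threshold had no water peak at all. The shares thus come from unlike groups, and the threshold was applied to lists of different estimated depth.

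Near-identical gene copies set a limit on these readings. H4c17 and H4c18 had 99.3% identical promoters, H3c14 and H3c15 94.7%, and H4c11 and H4c12 91.7%, while the median best match among the 63 member promoters was 61.7%. Of these 6 genes, the start base lay under a peak for 1 in water, H4c12, and for 2 after crotonate, H4c11 and H4c12. The water and crotonate peaks of H4c18 stopped short of its 3′ end at 21831792. The sources used here do not say how reads that match several places were handled, so the states of these 6 genes are uncertain, and the part of read placement in them was not tested.

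Peaks covered the start base of most members, and their summits lay on either side of it. The start base lay under a peak for 40 of 62 members (64.5%) in water, against 51.9% of all genes, and for 50 of 62 (80.6%) after crotonate, against 56.0%. By class, H2B stood at 12 of 14 in both lists, H2A went from 11 to 14 of 17, H3 from 7 to 8 of 10, H1 from 5 to 7 of 10 and H4 from 5 to 9 of 11. Where the start was covered, the summit lay a median of 13.0 bp downstream of it in water and 5.00 bp after crotonate, against 142 and 136 bp at all genes. The quartiles were wider at members, 100 bp upstream to 365 bp downstream in water, against 27 bp upstream to 260 bp downstream at all genes. After crotonate they were 167 bp upstream to 395 bp downstream, against 32 and 265 bp. The summit was within 1 kb of the start for 38 of 41 members' starts in water and 42 of 51 after crotonate, against 10188 of 10605 and 11009 of 11560 at all genes. The summit was downstream for 56.1% and 52.9% of these members' starts, against 73.3% and 72.5%. In 7 back-to-back H2A and H2B pairs both starts lay under the same peak in each list. Such starts share a summit, which cannot lie downstream of both. These pairs were not set apart, so the difference from all genes is not shown to be particular to histone genes.

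The mark also lay upstream of many members. At 1000 bp upstream of the start, 27% of members were under a peak in water and 60.3% after crotonate, beside 12.1% and 19% of all genes. At 1000 bp downstream the shares were 34.9% and 61.9% for members, beside 30.2% and 40.3%. Members stood above all genes at 5000 bp too. Upstream the shares were 12.7% and 30.2%, beside 1.82% and 2.80%, and downstream 9.52% and 25.4%, beside 1.14% and 2.06%. Peaks on neighbouring genes count in these shares and were not set apart, so the upstream values do not show spread from the members' own starts.

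**Figure D3:**
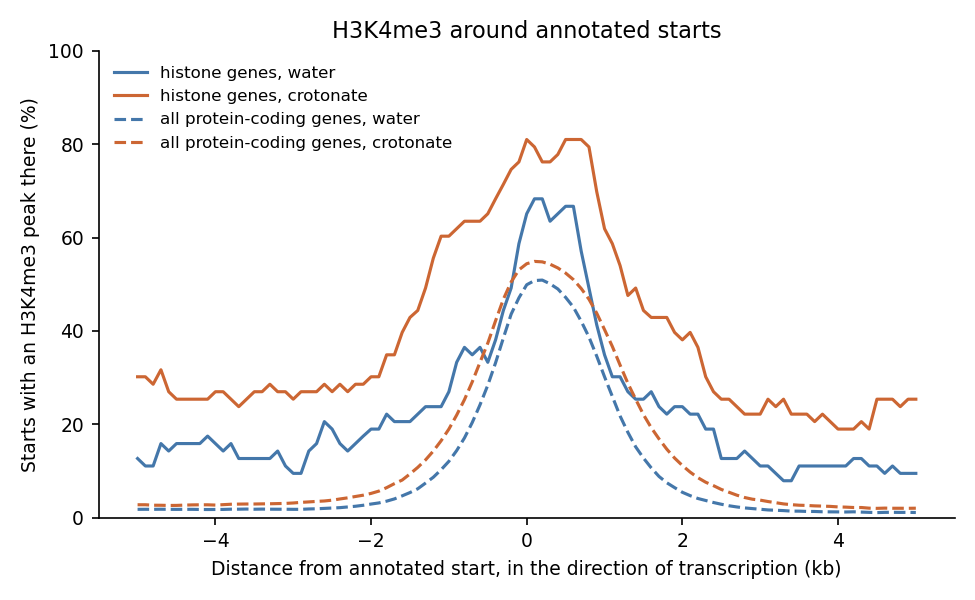
Percent of starts under an H3K4me3 peak on the y axis against distance from the start in kb on the x axis, for members and for all protein-coding genes in each list. At the start the members stand at 65.1% in water and 81.0% after crotonate over 63 starts, and all genes at 49.9% and 54.4%.

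Back-to-back H2A and H2B genes shared their peaks. In 9 pairs with promoter entries for both genes the starts lay 164 to 281 bp apart, with a median of 180 bp. H2ac20 beside H2bc21 and H2ac6 beside H2bc4 each shared a peak too, but H2bc21 and H2bc4 were not matched in the promoter table and these pairs are not counted. Both starts were under the same peak in both lists for 7 pairs: H2ac13 with H2bc13, H2ac15 with H2bc15, H2ac22 with H2bc22, H2ac12 with H2bc12, H2ac11 with H2bc11, H2ac8 with H2bc8, and H2ac7 with H2bc7. The starts of the other 2 pairs, H2ac23 with H2bc23 and the testis pair H2ac1 with H2bc1, were under no peak in either list. Member peaks had median widths of 1170 bp in water and 2260 bp after crotonate, far more than these distances. Other gene pairs at a like distance were not compared, so the sharing is not shown to be particular to histone genes.

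The peaks at members had low fold enrichment within their lists. In water their median fold enrichment was 6.70 (range 2.25 to 26.7) against 15.3 at all gene ends, and 43 of 46 lay under the list's median. Their median pileup was 27.3 against 43.9, and their median width 1170 bp against 1590 bp. After crotonate the median fold enrichment was 11.7 against 21.1, with 35 of 44 under the list's median, and the median width of 2260 bp lay above the 1920 bp of all gene ends. Peaks under 5-fold made up 16 of 46 (34.8%, against 4.73%) in water and 4 of 44 (9.09%, against 6.84%) after crotonate. Fold enrichment and pileup are the authors' values and are compared only within a list, apart from the 5-fold threshold, which was applied to both lists.

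The local background under the peaks was high. It was read back from pileup and fold enrichment, and its median at members was 3.0 in water, up to 11, against 1.55 at all gene ends, and 2.0 after crotonate, up to 9.0, against 1.56. A background of at least 5 lay under 18 of 46 member peaks in water (39.1%, against 6.79%) and 11 of 44 after crotonate (25%, against 5.96%). The other peaks within 500 kb of a cluster had a median of 1.04 in water and 1.29 after crotonate. H2B peaks stood highest among the classes in water, at a median background of 5.0 and a median fold enrichment of 4.99. Peaks of cluster 4 had a median fold enrichment of 11.9 in water, and those of clusters 1, 2 and 3 had 5.71, 4.92 and 5.56. A high background lowers a fold enrichment by construction, and what raised it was not tested.

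**Figure D4:**
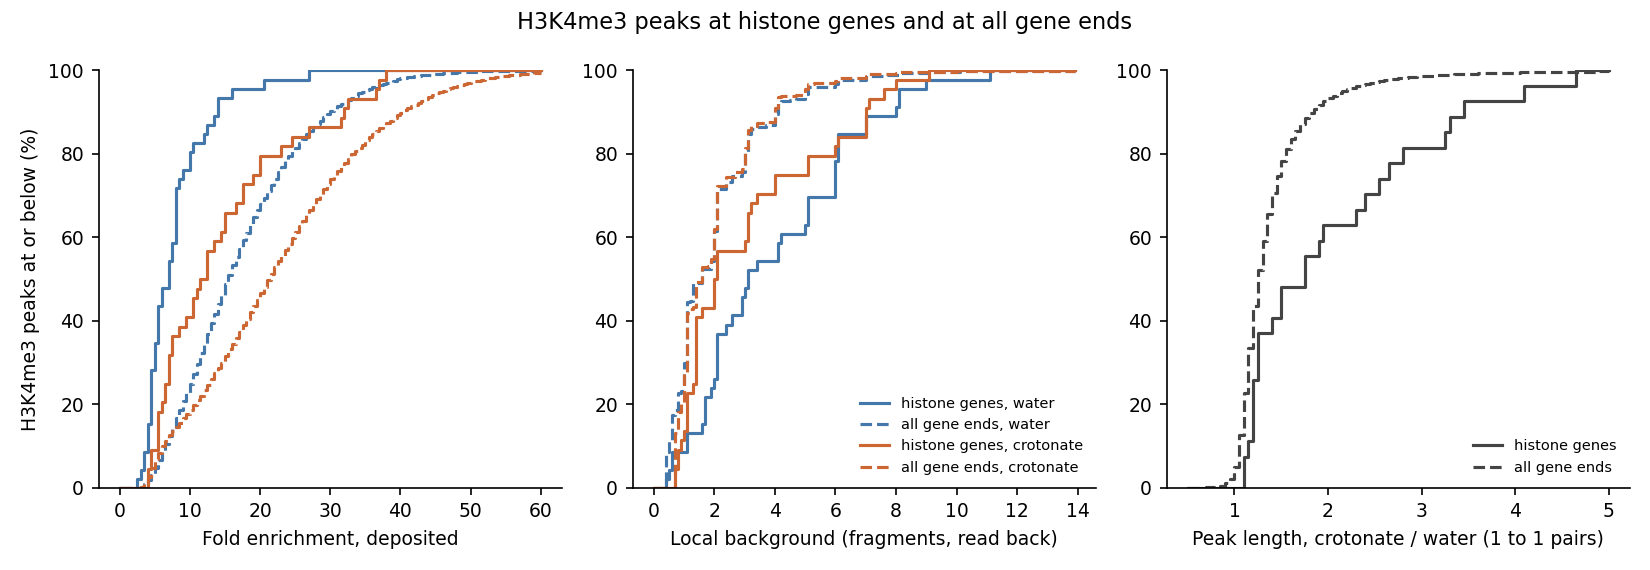
Cumulative percent of H3K4me3 peaks against fold enrichment, local background and the ratio of crotonate to water width, for peaks at members and at all gene ends. Member curves lie toward lower fold enrichment, higher background and larger width ratios.

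H3K27me3 had no peak at any member. None of 67 had a peak at either end in water, against 9.45% of all genes, or after crotonate, against 12.3%, and 0 of the 410 kb of cluster DNA was covered in either list. No member gained it, against 3.52% of genes without it in water. A loss could not be read at members, since none had the mark in water (4.06% of the genes with it in water lost it). The 4 members without H3K4me3 in either list therefore had no peak of either mark. Most members are neighbours in a few clusters, so 0 of 67 is not a count of independent observations. Local background is read only under a peak, so that of H3K27me3 at members is unknown. The nearest H3K27me3 to cluster 2 was a domain at chr13:21993704-22015459, 21.8 kb wide and 19.7 kb away in water, and 23.1 kb wide and 19.2 kb away after crotonate. From cluster 1 the nearest peak was 146 kb away in water and 34.1 kb after crotonate, and from cluster 4 it was 23.2 and 13.0 kb. From cluster 3 it was 124 and 123 kb away.

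Genes of the same pathway were read the same way. Of 10 replication-independent histone genes, which supply variants such as H3.3 and H2A.Z outside S phase, 9 had H3K4me3 in both lists, and the testis gene Hils1 had it in neither. Of 19 genes for transcription and mRNA processing of histone genes, 18 had it in both, among them Npat, Slbp and Hinfp, and Gon4l in neither. All 14 histone chaperone genes had it in both. H3K27me3 was on 1 of these 43 genes in each list, Sympk, a part of the 3′ end cleavage complex. In water the median fold enrichment was 11.2 for the replication-independent genes, 19.9 for the processing genes and 12.7 for the chaperones, beside 6.70 for the members. The members are not all replication-dependent, since the rule by symbol also took in H1f10, H1f7 and H1f8. The water peak of H1f10 had 15.6-fold enrichment, and H1f7 and H1f8 had no peak.

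Markers of the labelled cells were read with the same windows. H3K4me3 was at 7 of 8 neural stem and progenitor markers in both lists, including Sox2, Nes and Fabp7 but not Pax6. It was at 4 of 5 neuron markers in both lists, not at Dcx. Of all protein-coding genes, 54.1% had it in water and 58.2% after crotonate. H3K27me3 was at the neuron marker Rbfox3 and the fibroblast marker Pdgfra in both lists, and at Tmem119 after crotonate only. H3K4me3 was at 0 of 4 microglia markers (Aif1, Cx3cr1, Csf1r and Tmem119) and 1 of 3 endothelium markers in both lists, and at 1 of 3 fibroblast markers in water and 2 of 3 after crotonate.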

How the data were processed

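H3K4me3, H3K27me3 and IgG were profiled by CUT&Tag in 6 samples, 1 per antibody and treatment, and 4 peak lists were analysed. Bowtie2 2.4.1, SAMtools 1.10, Picard 2.22.0, MACS2 2.2.7.1 and, as the build, GRCm38 were used per the submitters' processing notes. The sources used here do not give their settings or the background library. The deposited lists give pileup at the summit as a signal scaled by the authors' caller, per the file headers. Significance is deposited as −log10 of p and of q, per the file headers, and every deposited peak had q under 0.05. Fold enrichment is a linear ratio by the authors' caller, per the file headers, read here as pileup plus 1 over local background plus 1. On this reading 76.7% of local backgrounds above the lowest levels in the water H3K4me3 list, and 77.7% in the crotonate list, lay within 0.02 of a whole number. All pileups were whole multiples of 1 step per list within 0.006. Fragment totals are unknown, so depth is an estimate, and the precision of a count of members is limited by 1 library per group.

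A gene counted as marked when a peak overlapped by at least 1 bp a window of 2 kb on either side of either annotated end. Peaks were not assigned to a single gene. Genes and promoters came from RefSeq GRCm38.p6, chromosomes 1 to 19, X and Y. Python 3.11.15, numpy 2.4.6, pandas 2.3.3, scipy 1.17.1, matplotlib 3.10.9 and biopython 1.88 were used, and the scripts were tested on simulated data. Alternatives were lists of equal length, a fold enrichment of at least 5, a window of 500 bp, overlap with the gene itself, a cluster gap of 50 kb, and, chosen after the data were seen, members inside a cluster only and the addition of 4 genes with older Hist names. The members and lists were chosen with earlier results of these data known. Named genes were all members with H3K27me3, without H3K4me3 in a list, or with a gain or loss, the members with the widest and narrowest strongest water peak per class, members outside any cluster and those of the peak with most members. The strongest peak is the one with the highest −log10 q. Others are named to describe shared peaks and were chosen after their values were seen.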

Additional observations from a re-analysis of the deposited data

How the results depend on the processing

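Of 98 values under an alternative, 93 stayed within the tolerance, 5 moved beyond it and 0 reversed; the tolerance was 1.5 times for peak counts and widths and the exact 95% binomial interval for shares. With a fold enrichment of at least 5, 44 of 67 members had H3K4me3 in water (65.7%, against 52.4% of all genes), from 30 distinct peaks. Of 23 members then unmarked in water, 19 counted as gained (against 9.76% of such genes), and 3 of 40 crotonate peaks overlapped at least 2 water peaks (against 2.29% at all gene ends). Most of these 19 members had a water peak under 5-fold, so they differ from most unmarked genes. The ratio of summed widths was then 2.30, against 1.35 at all gene ends. Inside the clusters alone, 61 of 61 members were marked after crotonate, since the unmarked members stand outside them. A window of 500 bp and overlap with the gene itself moved no count of members or peaks beyond the tolerance. They gave 4 and 5 gained members, but not the same members as reported above. The gains of H2ac23 and H2bc23 do not hold under either, since their only peak lay more than 500 bp from both genes. The 4 genes with older Hist names added 1 gain. No H3K27me3 count left 0 under any alternative run. No paired analysis was possible because each group has 1 library, and for the same reason no library could be left out. A missing peak can have fallen just short of the caller's threshold.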
